A study of Mus musculus with 12 samples.

Results

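Scgb1a1, Scgb3a1, Scgb3a2, Cyp2f2, Cbr2, Gsta3, Bpifa1 and Muc5b are genes by which the secretory club cells of the airway are recognised. Their probe sets were found by symbol in the annotation of the Affymetrix mouse genome array that was used, where Bpifa1 was also looked for under its older name Plunc. The search gave 9 of 45037 probe sets, 2 of them for Gsta3 and 1 for each of the other genes, and Bpifa1 was listed under its current symbol. All 9 lay above the filter on dim probe sets. The probe set with the highest mean stood for its gene, so the 8 genes were 8 of 12309 genes tested.

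Club cells line the bronchioles, secrete small proteins into the airway lining fluid, break down inhaled chemicals and can renew other airway epithelial cells. Secretoglobins such as Scgb1a1, Scgb3a1 and Scgb3a2 are their main secreted proteins, and in the mouse Cyp2f2, a cytochrome P450, is the enzyme that makes naphthalene toxic to them. Cbr2 is a carbonyl reductase and Gsta3 a glutathione transferase, both detoxifying enzymes, while Bpifa1, an antimicrobial surface protein, and Muc5b, a gel-forming mucin, are known mainly from the larger airways and their glands.

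The study measured total lung RNA of 12 mice on 1 array each, in 4 groups of 3. All animals were male C57BL/6 mice aged 8 to 12 weeks. nmMLCK-/- mice, called knockout here, are taken from their name to lack non-muscle myosin light chain kinase, an enzyme of the cytoskeleton of endothelial and other cells, and the labels do not say how the line was made. The groups were knockout mice after ventilator-induced lung injury (VILI), knockout mice breathing spontaneously (SB), wild-type mice after VILI and wild-type mice under SB. VILI meant 4 h of mechanical ventilation at 65 breaths per min with an end-expiratory pressure of 0 cm H2O, and the tidal volume given is 40 ml/kg for the samples but 30 ml/kg for the series. With no group ventilated gently, high tidal volume and ventilation as such cannot be told apart. Values are log2 signals, so a difference of 1 is a 2-fold change of signal, and a gene was called changed at a Benjamini-Hochberg adjusted p under 0.05 over all 12309 genes in limma.

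Some SB arrays stood apart. The second principal component, with 17.11% of the variance, separated knockout SB replicate 2 and wild-type SB replicate 3 from the other SB arrays, and wild-type SB replicate 3 had a neutrophil marker median 1.08 above the genes' means, against -2.24 to -1.27 in the other 5 SB arrays. In wild-type SB replicates 1 and 2 the leading Sox11 probe set read 3.66 and 3.6, against 7.14 to 9.28 in the other arrays. Below, leaving out the component pair means leaving out knockout SB replicate 2 and wild-type SB replicate 3. Leaving out the Sox11 pair means leaving out wild-type SB replicates 1 and 2. The lone wild-type SB array is then replicate 3, itself of the component pair, and is assumed to vary like the other groups. Mylk, which encodes the targeted kinase, was read by 3 probe sets, at 4.52 to 5.51 in knockout arrays against 4.67 to 6.70 in wild-type arrays, 11.69 to 12.75 against 12.29 to 13.16, and 12.68 to 12.83 against 12.77 to 13.05. The sources used here do not say which isoform each of the 3 reads, so the labels could not be checked on the non-muscle isoform alone.

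Across the 4 groups, Gsta3 was the member that changed with ventilation. It fell in both genotypes, to 0.572 of the SB signal in knockout lungs and to 0.59 in wild-type lungs, and the other 7 genes were called in neither. In knockout lungs 0 of the 8 genes rose and 1 fell, beside 8.12% and 12.6% of all genes tested (20.7% in either direction). In wild-type lungs 0 rose and 1 fell, beside 6.34% and 9.03% (15.4% in either direction), so a count of 1 in 8 is near the background in both. The median difference of the 8 genes was 0.016 log2 in knockout and -0.17 in wild-type lungs, against -0.050 over all genes in both. The wild-type median was -0.31 with the component pair left out and -0.068 with the Sox11 pair left out.

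**Figure D1:**
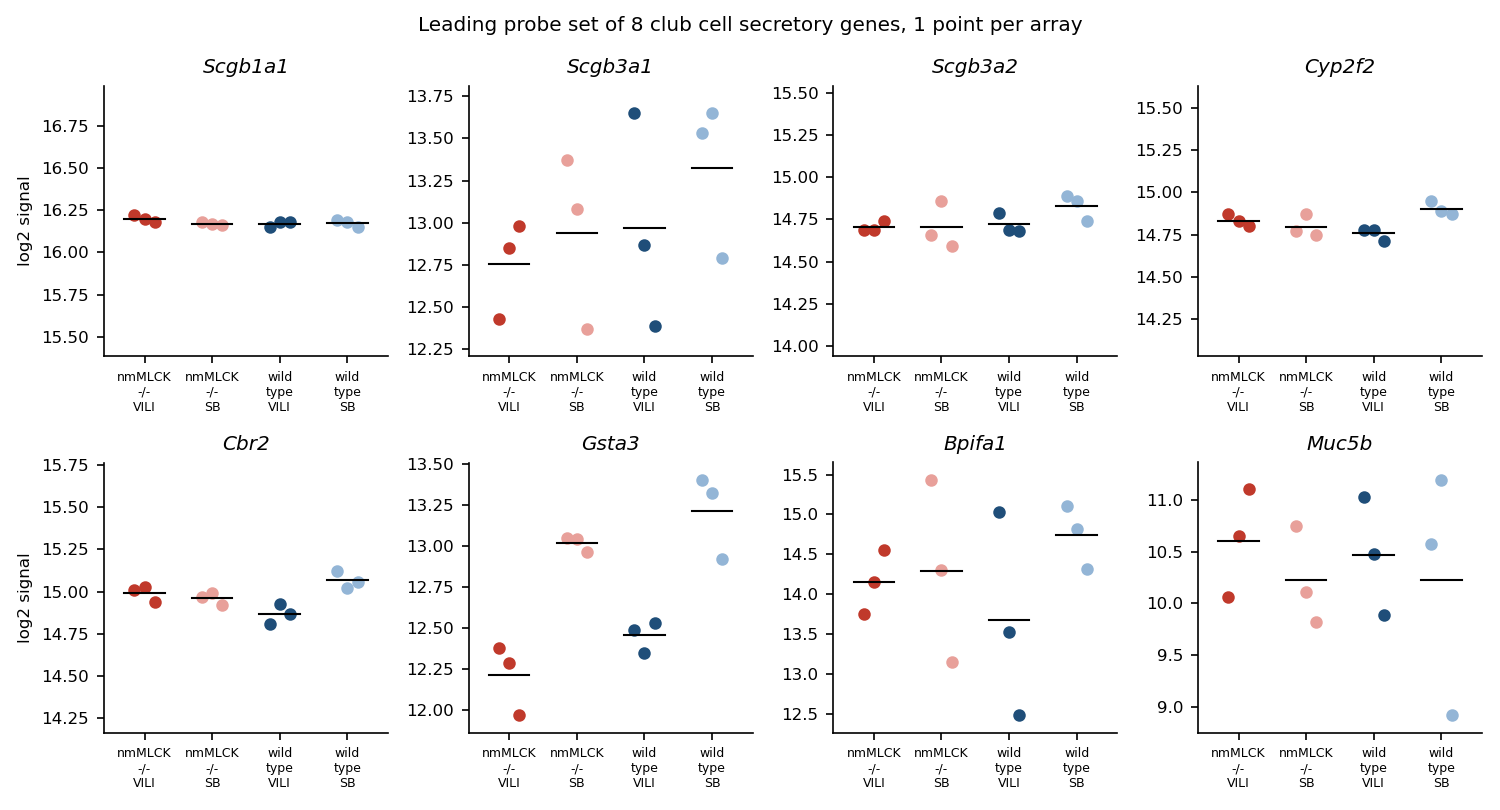
Log2 signal of the leading probe set of each of the 8 genes on each array, with 3 points per group and a line at the group mean. Each panel has its own signal range. Gsta3 is lower on all 3 VILI arrays than on all 3 SB arrays in both genotypes, Scgb1a1 sits between 16.15 and 16.22 on all 12 arrays, and Bpifa1, Scgb3a1 and Muc5b scatter within every group.

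Gsta3 encodes an alpha-class glutathione transferase, an enzyme that joins glutathione to reactive lipid products and toxins. Its leading probe set read 12.38, 12.29 and 11.97 in knockout VILI lungs, against 13.05, 13.04 and 12.96 in knockout SB lungs. It read 12.49, 12.35 and 12.53 in wild-type VILI lungs, against 13.40, 13.32 and 12.92 in wild-type SB lungs. Every VILI array lay below every SB array of either genotype. The group means were 12.21 ± 0.215 in knockout VILI, 13.02 ± 0.049 in knockout SB, 12.45 ± 0.095 in wild-type VILI and 13.22 ± 0.26 in wild-type SB lungs (SD, n = 3 each).

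VILI minus SB for Gsta3 was -0.81 ± 0.14 log2 in knockout lungs (SE, 95% confidence interval -1.12 to -0.49, adjusted p = 0.00504). In wild-type lungs it was -0.76 ± 0.14 (95% confidence interval -1.07 to -0.45, adjusted p = 0.00723). The mean over both genotypes was -0.78 ± 0.10, a fall to 0.581 of the SB signal (adjusted p = 0.000364), in a comparison where 22.6% of all genes were called lower, 14.1% higher and 36.7% were called in either direction. With each array left out in turn, the fall ran from -0.89 to -0.69 in knockout lungs (adjusted p 0.00164 to 0.0192) and from -0.91 to -0.67 in wild-type lungs (0.00201 to 0.0326). With the component pair left out it was -0.80 in knockout and -0.91 in wild-type lungs. With the Sox11 pair left out the wild-type difference was -0.46 and not called (adjusted p = 0.082).

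The second Gsta3 probe set read 9.66, 9.75 and 9.88 in knockout VILI lungs, against 10.29, 9.93 and 10.11 in knockout SB lungs. It read 9.43, 9.60 and 9.63 in wild-type VILI lungs, against 10.26, 10.13 and 9.80 in wild-type SB lungs. VILI arrays again lay below SB arrays of the same genotype with no overlap, by smaller amounts. In a fit over all 22443 probe sets past the filter, it differed by -0.35 ± 0.14 in knockout lungs (adjusted p = 0.106, unadjusted p = 0.03), which was not called, and fell by 0.51 ± 0.14 in wild-type lungs (adjusted p = 0.0415). The leading probe set passed in that same fit in both genotypes (adjusted p = 0.00704 in knockout and 0.0099 in wild type). In bulk lung RNA, fewer cells of a type and less RNA per cell cannot be told apart. Neutrophil markers moved with ventilation in the same arrays, at a list median of 0.86 to 1.77 above the genes' means in VILI lungs, and their part in the fall of Gsta3 was not tested.

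The 250 bases before the start of the Gsta3 gene are shown because it is the called member (RefSeq, GRCm38.p6, chr1:21240335-21240584, plus strand). RefSeq windows were at hand for 5 of the 8 genes, and capitals mark matches to 6 short motifs searched on both strands: TATAAA, the CCAAT box CCAAT, the FOXA letters TGTTTAC, the NKX2-1 core CTCAAG, the C/EBP letters TTGCNNAA and the antioxidant response element core TGACNNNGC.
Gsta3: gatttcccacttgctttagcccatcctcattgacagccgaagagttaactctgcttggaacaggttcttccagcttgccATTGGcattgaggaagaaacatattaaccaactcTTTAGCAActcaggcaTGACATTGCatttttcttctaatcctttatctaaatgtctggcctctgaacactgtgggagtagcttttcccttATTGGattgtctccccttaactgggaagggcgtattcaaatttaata
The Gsta3 window held CCAAT on the minus strand 171 to 167 and 47 to 43 bases before the start, a C/EBP match TTTAGCAA at 137 to 130 and the antioxidant response element core as TGACATTGC at 121 to 113. No match overlapped another. Of 32851 RefSeq windows of the same length, 33.8% held CCAAT, 9.56% the C/EBP letters and 10.2% the antioxidant response element core, and a match is a description of letters, not a site in use. The core is the element that NRF2, a transcription factor of the oxidative stress response, is known to bind. On these arrays 3 of 14 tested genes of the NRF2 and oxidative stress list rose and 0 fell with VILI in each genotype, beside 8.12% of all genes rising in knockout and 6.34% in wild-type lungs. With each array left out in turn the rises numbered 2 to 4 in knockout and 0 to 3 in wild-type lungs. With the component pair left out 5 rose and 1 fell in knockout lungs and 3 rose in wild-type lungs, and with the Sox11 pair left out 4 rose in knockout lungs, and 4 rose and 1 fell in wild-type lungs. On all arrays the genes that rose were Gsr, the glutathione reductase, and the metallothioneins Mt1 and Mt2. Gsr differed by 1.10 ± 0.17 in knockout and by 0.70 ± 0.17 in wild-type lungs (adjusted p = 0.00309 and 0.0232, the second up to 0.0759 with arrays left out). Mt1 rose by 2.37 and 2.03 and Mt2 by 2.90 and 2.53 in the same order. Nqo1, Hmox1, Gclc, Gclm, Srxn1 and Osgin1 of the same list were called in neither genotype. The list's median difference was 0.83 in knockout and 0.61 in wild-type lungs, 0.29 and 0.13 with the component pair left out, and 0.83 and 1.81 with the Sox11 pair left out.

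Cyp2f2 and Cbr2, the other enzymes, moved by small amounts that the test did not call. Cbr2 read 15.01, 15.03 and 14.94 in knockout VILI lungs, against 14.97, 14.99 and 14.92 in knockout SB lungs. In wild-type VILI lungs it read 14.81, 14.93 and 14.87, against 15.12, 15.02 and 15.06 in wild-type SB lungs. The groups overlapped in knockout lungs, and in wild-type lungs all VILI arrays lay below all SB arrays. The wild-type difference was -0.20 ± 0.07 log2, a signal of 0.871 of SB (95% confidence interval -0.36 to -0.039, unadjusted p = 0.0195, adjusted p = 0.0892). That adjusted p ran from 0.019 to 0.235 over the alternatives and passed the threshold with no filter on dim probe sets (0.0226), with an intensity trend in the spread (0.0198) and with array weights (0.019). The knockout difference was 0.034 (95% confidence interval -0.13 to 0.19, adjusted p = 0.763).

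Cyp2f2 read 14.87, 14.83 and 14.80 in knockout VILI lungs, against 14.77, 14.87 and 14.75 in knockout SB lungs. It read 14.78, 14.78 and 14.71 in wild-type VILI lungs, against 14.95, 14.89 and 14.87 in wild-type SB lungs. As for Cbr2, the knockout groups overlapped and the wild-type VILI arrays lay below the SB arrays. The wild-type difference was -0.15 ± 0.07 (95% confidence interval -0.30 to 0.012, adjusted p = 0.194) and the knockout difference 0.040 (-0.12 to 0.20, adjusted p = 0.724). Counting groups that do not overlap, 1 of the 8 genes was lower after VILI in knockout lungs (Gsta3), beside 25.8% of all genes (43.8% in either direction), and 3 were lower in wild-type lungs (Cyp2f2, Cbr2 and Gsta3), beside 20.5% (36.0% in either direction). 0 were higher in either, beside 17.9% of all genes in knockout and 15.5% in wild-type lungs.

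**Figure D2:**
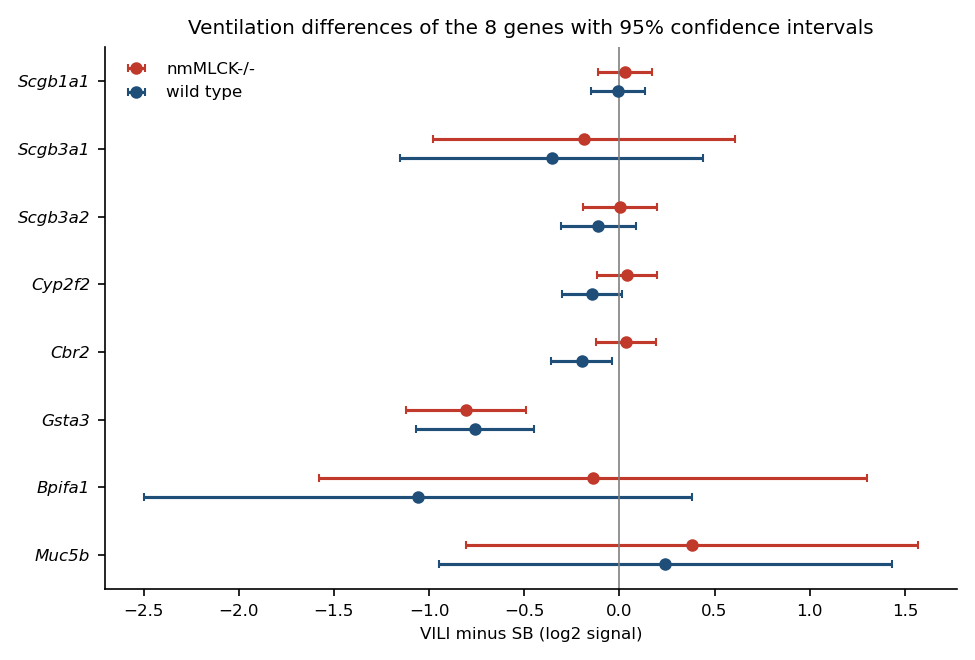
VILI minus SB in log2 signal for the 8 genes in knockout (nmMLCK-/-) and wild-type lungs, with limma's 95% confidence intervals from 12 arrays. Only the Gsta3 intervals in both genotypes and the wild-type Cbr2 interval lie wholly below 0. The Bpifa1 and Muc5b intervals span over 2 log2.

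The secretoglobins showed no called difference. Scgb1a1, the most widely used club cell marker, read 16.22, 16.20 and 16.18 in knockout VILI lungs, against 16.18, 16.17 and 16.16 in knockout SB lungs. It read 16.15, 16.18 and 16.18 in wild-type VILI lungs, against 16.19, 16.18 and 16.15 in wild-type SB lungs. The arrays were nearly equal and the groups touched or overlapped in every pair. VILI minus SB was 0.028 in knockout (95% confidence interval -0.11 to 0.17) and -0.0076 in wild-type lungs (-0.15 to 0.13), where it was 0.018 with the Sox11 pair left out.

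The Scgb1a1 signal sits at the top of the scale. It was the highest value of any probe set on wild-type SB replicate 2 and the second highest on the other 11 arrays, within 0.14 of the highest on each, and the scanner's 16 bits end the range of raw intensity at 16 on a log2 scale. Of all probe sets, 4 had a mean of 16 or more. Its range over the 12 arrays was 0.0717, against a median range of 0.795 over all genes. A true difference in Scgb1a1 RNA could be compressed or hidden at this level, so these values do not show that it was unchanged.

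Signals near the top varied less in general. The median range over arrays was 0.229 for the 39 genes with a mean of 15 or more, 0.376 for the 164 genes between 14 and 15, and 0.843 for the 3710 genes between 8 and 10. The share called in the wild-type comparison was 5.13%, 9.76% and 18.8% in these classes, and in the knockout comparison 10.3%, 11.6% and 25.7%. Scgb1a1, Scgb3a2, Cyp2f2, Cbr2 and Bpifa1 had means of 14 or more, so 5 of the 8 genes lie in the classes with fewer calls. Whether the differences of Cbr2 and Cyp2f2 were compressed was not tested.

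Scgb3a2, a secretoglobin known from the bronchioles, read 14.69, 14.69 and 14.74 in knockout VILI lungs, against 14.66, 14.86 and 14.59 in knockout SB lungs. It read 14.79, 14.69 and 14.68 in wild-type VILI lungs, against 14.89, 14.86 and 14.74 in wild-type SB lungs. The groups overlapped in both genotypes. The differences were 0.0044 in knockout (95% confidence interval -0.19 to 0.20) and -0.11 in wild-type lungs (-0.31 to 0.086, adjusted p = 0.438).

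Scgb3a1 read 12.43, 12.85 and 12.98 in knockout VILI lungs, against 13.37, 13.08 and 12.37 in knockout SB lungs. It read 13.65, 12.87 and 12.39 in wild-type VILI lungs, against 13.53, 13.65 and 12.79 in wild-type SB lungs. Arrays of 1 group were up to 1.25 apart and the groups overlapped throughout. VILI minus SB was -0.19 (95% confidence interval -0.98 to 0.61) in knockout and -0.35 (-1.15 to 0.44) in wild-type lungs, with adjusted p of 0.741 and 0.541. The wild-type value was -0.62 with the component pair left out and turned to 0.18 with the Sox11 pair left out, neither called.

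Bpifa1 and Muc5b also varied more between arrays of a group than between groups. Bpifa1 read 13.75, 14.16 and 14.56 in knockout VILI lungs, against 15.43, 14.31 and 13.15 in knockout SB lungs. It read 15.03, 13.53 and 12.49 in wild-type VILI lungs, against 15.10, 14.82 and 14.32 in wild-type SB lungs. The highest and lowest wild-type VILI arrays were 2.54 apart, and every group overlapped every other. The differences were -0.14 in knockout (95% confidence interval -1.58 to 1.30) and -1.06 ± 0.65 in wild-type lungs (-2.50 to 0.38, adjusted p = 0.301). The wild-type value was -1.27 with the component pair left out and -0.63 with the Sox11 pair left out.

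Muc5b read 10.06, 10.65 and 11.10 in knockout VILI lungs, against 10.75, 10.11 and 9.82 in knockout SB lungs. It read 11.03, 10.48 and 9.89 in wild-type VILI lungs, against 10.57, 11.19 and 8.92 in wild-type SB lungs. Wild-type SB replicate 3, which stands apart on the second principal component, was the lowest of all. VILI minus SB was 0.38 in knockout (95% confidence interval -0.81 to 1.57) and 0.24 in wild-type lungs (-0.95 to 1.43), and the wild-type sign depended on the SB arrays. It was -0.41 with the component pair left out and 1.55 with the Sox11 pair left out. The second value rests on wild-type SB replicate 3 alone, as does the mean of both genotypes in that setting (0.96).

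The spread within groups set the 8 genes apart from each other. The SD within groups was 0.903 for Bpifa1, 0.742 for Muc5b and 0.491 for Scgb3a1, at the 98.9th, 98.0th and 93.5th percentile of all genes tested, where the median was 0.187. It was 0.0181 for Scgb1a1, 0.0482 for Cyp2f2 and 0.0505 for Cbr2, at the 0.106th, 1.43rd and 1.64th percentile. Scgb3a2 had 0.0875, at the 9.55th percentile. Gsta3 had 0.177, at the 46.3rd percentile and close to the median of all genes. Bpifa1 combined a mean above 14 with a range of 2.94 over the arrays, the widest among the 164 genes with a mean between 14 and 15.

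**Figure D3:**
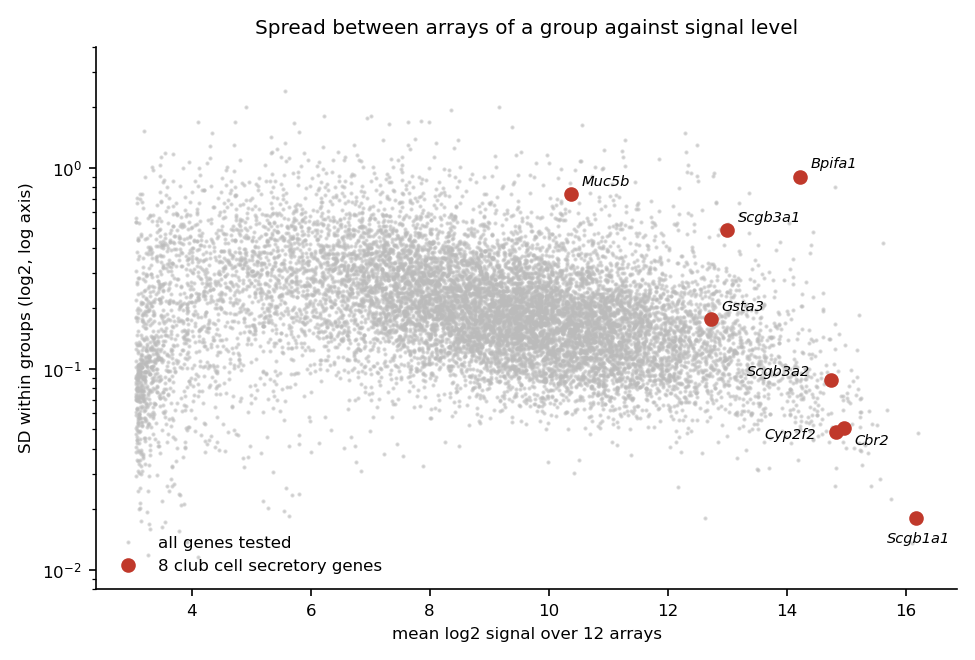
SD within groups on a log axis against the mean log2 signal over 12 arrays, for 12309 genes in grey and the 8 club cell secretory genes in red. Spread narrows towards the top of the signal scale, where Scgb1a1, Cbr2 and Cyp2f2 lie, while Bpifa1, Scgb3a1 and Muc5b lie at the upper edge of genes of like signal.

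Across the 12 arrays, Bpifa1 and Scgb3a1 varied together. Their signals correlated at Pearson r = 0.871 (permutation p = 0.00023, adjusted p = 0.00644 over the 28 pairs of the 8 genes) and Spearman rho = 0.839 (permutation p = 0.00121, adjusted p = 0.0213). Without the 2 arrays farthest from the median r was 0.887, and over deviations from the group means it was 0.934. It was 0.837 over the 6 VILI arrays and 0.886 over the 6 SB arrays. Wild-type VILI replicate 1 and knockout SB replicate 1 were high in both genes, and wild-type VILI replicate 3 and knockout SB replicate 3 were low in both.

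Muc5b followed in part. With Scgb3a1 its r was 0.659 (adjusted p = 0.106), passing the threshold only by rank (rho = 0.804, adjusted p = 0.0213), and without the 2 farthest arrays r was 0.495. With Bpifa1 its r was 0.518 (adjusted p = 0.345). The second pair of the 28 that passed by Pearson's r was Cyp2f2 and Cbr2 (r = 0.838, permutation p = 0.00082, adjusted p = 0.0115, rho = 0.818). Its r was 0.716 without the 2 farthest arrays, 0.733 over the VILI arrays, 0.903 over the SB arrays and 0.527 over deviations from the group means. The permutations took no account of group, so differences between groups shared by both genes also enter these p. Scgb3a2 and Cyp2f2 passed by rank (rho = 0.792, adjusted p = 0.0213) and not by r (0.738, adjusted p = 0.0631), with r of 0.933 over the SB arrays and 0.0032 over the VILI arrays.

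The median of a short list of upper airway and gland genes moved with Bpifa1 and Scgb3a1 on the same arrays. Of 14 such genes, 11 were annotated and 4 were tested. They were Bpifb1, a relative of Bpifa1 secreted by mucous cells, Ltf, the iron-binding lactoferrin, Reg3g, an antimicrobial lectin, and Pip, a secreted gland protein, which lay near the filter level at 3.05 to 3.24 on all 12 arrays and varied little. The list's median, relative to each gene's mean, ran from -0.31 to 0.20 in knockout VILI, -0.97 to 0.73 in knockout SB, -1.37 to 1.22 in wild-type VILI and -0.25 to 0.52 in wild-type SB lungs. Its correlations with Bpifa1 and Scgb3a1 were computed after the data were seen, so they are a description with no test. It correlated with Bpifa1 at r = 0.931 and rho = 0.944, with r = 0.944 without the 2 farthest arrays. With Scgb3a1 r was 0.854 and rho 0.839, with r = 0.803 without the 2 farthest arrays. Over deviations from the group means these were 0.985 for Bpifa1 and 0.922 for Scgb3a1.

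Bpifb1 shows the pattern in 1 gene. It read 10.61, 11.40 and 11.66 in knockout VILI lungs, against 12.24, 11.93 and 10.79 in knockout SB lungs. It read 12.75, 10.93 and 10.07 in wild-type VILI lungs, against 11.93, 11.83 and 11.25 in wild-type SB lungs. As for Bpifa1, wild-type VILI replicate 1 was high, wild-type VILI replicate 3 and knockout SB replicate 3 were low, and the groups overlapped.

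Heart muscle genes also followed Bpifa1. A list of 15 such genes was written after Srl and Atp2a2, both genes of the muscle calcium store, were found to be the 2 genes most like Bpifa1 across the arrays (r = 0.962 and 0.951), so its correlation is a description with no test. Its median ran from -0.60 to 0.21 in knockout VILI, -0.43 to 1.02 in knockout SB, -1.18 to 0.74 in wild-type VILI and 0.15 to 0.35 in wild-type SB lungs. Its r was 0.936 with Bpifa1, 0.812 with Scgb3a1 and 0.40 with Muc5b. 0 of the 15 genes were called between VILI and SB in either genotype, and Actc1, the cardiac actin, was called lower in the mean of both (-1.01, adjusted p = 0.0101). The list's median difference was -0.64 in knockout lungs (-1.04 to -0.22 with each array left out in turn) and -0.55 in wild-type lungs (-1.24 to -0.19). The part of upper airway or heart tissue in the Bpifa1 and Scgb3a1 signals was not tested.

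**Figure D4:**
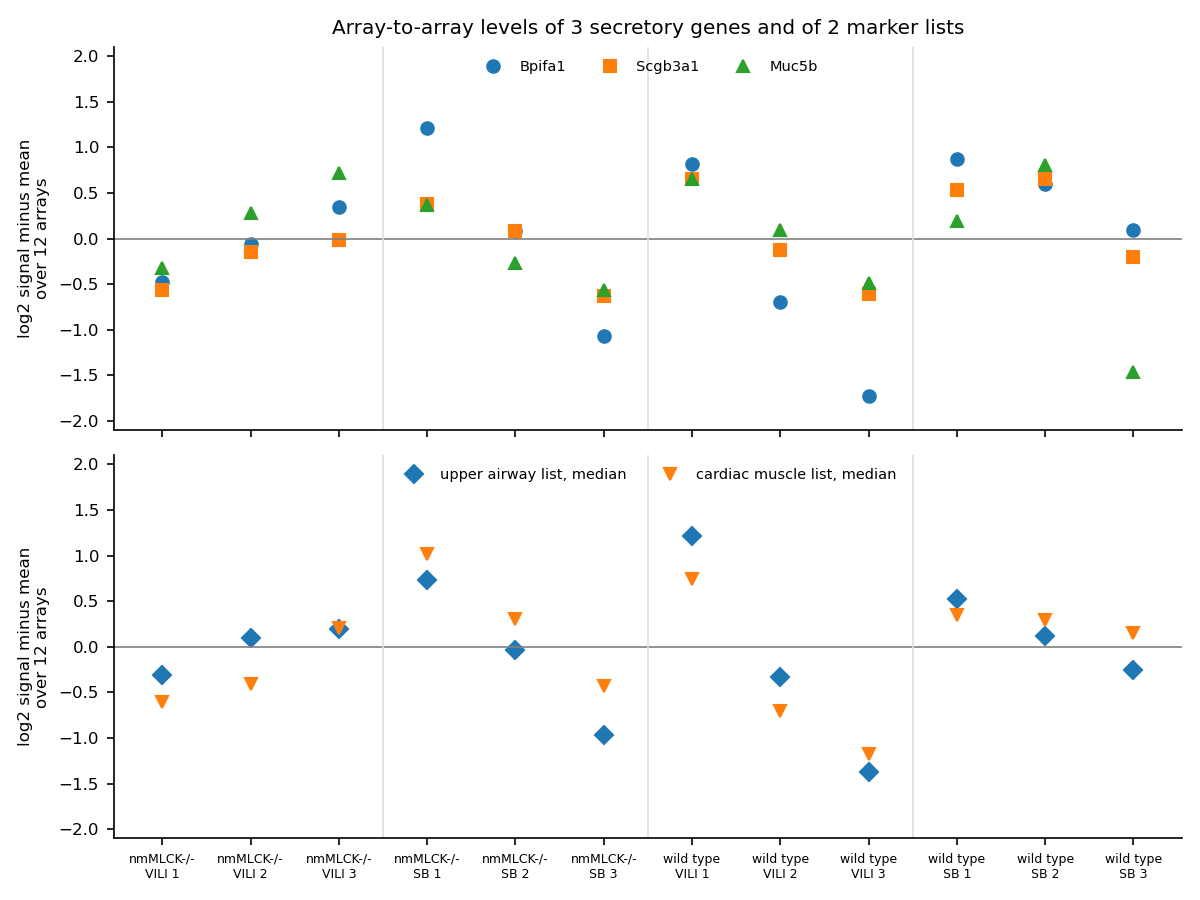
Log2 signal minus the mean over 12 arrays for Bpifa1, Scgb3a1 and Muc5b (upper panel) and the medians of the upper airway list of 4 genes and the heart muscle list of 15 genes (lower panel), 1 point per array. Wild-type VILI replicate 3 and knockout SB replicate 3 are low for Bpifa1, Scgb3a1 and both lists, and wild-type VILI replicate 1 and knockout SB replicate 1 are high.

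The windows before the starts of Bpifa1 and Scgb3a1 are shown because these genes moved together across arrays (RefSeq, GRCm38.p6, chr2:154142630-154142879 and chr11:49663345-49663594, both plus strand). Capitals mark matches to the same 6 motifs.
Bpifa1: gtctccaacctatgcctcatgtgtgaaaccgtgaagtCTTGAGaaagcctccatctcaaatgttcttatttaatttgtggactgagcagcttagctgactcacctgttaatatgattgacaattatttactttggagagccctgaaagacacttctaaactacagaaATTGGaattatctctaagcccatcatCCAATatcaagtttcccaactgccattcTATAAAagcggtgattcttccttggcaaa
Scgb3a1: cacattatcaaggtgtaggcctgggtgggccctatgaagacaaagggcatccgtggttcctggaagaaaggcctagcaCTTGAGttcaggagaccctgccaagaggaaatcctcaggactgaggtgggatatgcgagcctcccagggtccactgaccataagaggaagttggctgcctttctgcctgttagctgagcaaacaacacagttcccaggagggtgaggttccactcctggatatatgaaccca
Both windows held the NKX2-1 core on the minus strand, 213 to 208 bases before the start in Bpifa1 and 172 to 167 in Scgb3a1, as did 13.3% of all 32851 windows. NKX2-1 is a transcription factor of lung epithelium. Bpifa1 also held TATAAA at 29 to 24, as did 12.4% of windows, and CCAAT at 83 to 79 on the minus strand and at 57 to 53. The Cyp2f2 and Cbr2 windows held none of the 6 motifs, and FOXA letters, present in 3.17% of all windows, were in none of the 5.

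No difference between genotypes was called in any of the 8 genes. Under SB, 0 of the 8 genes were called, beside 0.0487% of all genes (0.0162% higher and 0.0325% lower), and 0 had an unadjusted p under 0.05, as 460 of all genes did. All 8 averaged lower in knockout than in wild-type SB lungs, with a median of -0.12 against 0.02 over all genes, from -0.00057 for Muc5b to -0.45 for Bpifa1. With the Sox11 pair left out the sign turned for 4 of the 8, Scgb1a1 (0.020), Scgb3a1 (0.15), Gsta3 (0.10) and Muc5b (1.30), and with the component pair left out it turned for 0 of the 8. Only Cbr2 had groups that do not overlap under SB (-0.11, 95% confidence interval -0.27 to 0.052), lower in knockout lungs, beside 2.31% of all genes lower, 4.30% higher and 6.60% in either direction.

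Under VILI, 0 of the 8 genes were called between genotypes, beside 0.106% of all genes (0.0487% higher and 0.0569% lower), and 0 had an unadjusted p under 0.05, as 1070 of all genes did. Cbr2 (0.13, 95% confidence interval -0.034 to 0.29, adjusted p = 0.645) and Cyp2f2 (0.079, -0.079 to 0.24, adjusted p = 0.80) lay higher in all knockout than in all wild-type VILI arrays, beside 11.1% of all genes higher, 9.33% lower and 20.5% in either direction. Gsta3 differed by -0.24 (-0.56 to 0.071, adjusted p = 0.65), and its second probe set by 0.21 (-0.099 to 0.52), in the opposite direction. Knockout minus wild type for Bpifa1 was 0.47 (-0.97 to 1.92).

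The difference between the VILI responses, knockout minus wild type, was called for 0 of the 8 genes, beside 0% of all 12309 genes, of which 619 had an unadjusted limma p under 0.05. Cbr2 had the smallest p of the 8 (0.23 ± 0.10, 95% confidence interval 0.0072 to 0.46, unadjusted p = 0.0442, adjusted p = 0.971), followed by Cyp2f2 (0.19, unadjusted p = 0.0949). For Gsta3 the difference was -0.045 (-0.49 to 0.40, adjusted p = 0.998). For Bpifa1 the interval of -1.12 to 2.96 includes differences of over 2-fold in both directions. With the Sox11 pair left out the sign turned for Scgb3a1 (-0.37, against 0.17 on all arrays) and Muc5b (-1.17, against 0.14), and with the component pair left out for Gsta3 (0.11).

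Among other genes known from club cells most calls were falls, as they were over all genes. Of a list of 38, 35 were annotated and 32 tested. In knockout lungs 1 rose and 8 fell with VILI, beside 8.12% and 12.6% of all genes, and in wild-type lungs 0 rose and 6 fell, beside 6.34% and 9.03%. The median difference was -0.045 in knockout and -0.20 in wild-type lungs, against -0.050 over all genes. With the component pair left out, 5 fell in knockout and 8 in wild-type lungs. With the Sox11 pair left out the falls numbered 8 in knockout and 2 in wild-type lungs, and with each array left out in turn 1 to 8 and 2 to 8. The lowest counts came without knockout SB replicate 2 in knockout lungs, and in wild-type lungs when wild-type SB replicate 1 was left out.

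Ephx1, the microsomal epoxide hydrolase, read 12.10, 12.27 and 12.25 in knockout VILI lungs, against 12.55, 12.84 and 12.62 in knockout SB lungs. It read 11.95, 12.11 and 12.00 in wild-type VILI lungs, against 12.65, 12.40 and 12.73 in wild-type SB lungs. VILI arrays lay below SB arrays in both genotypes, a fall of 0.47 ± 0.11 in knockout (adjusted p = 0.0183) and of 0.57 ± 0.11 in wild-type lungs (adjusted p = 0.00951). The knockout call was lost in 2 of the 14 fits with arrays left out, with a highest adjusted p of 0.0679 without knockout SB replicate 2, and the wild-type call held in all 14 fits with arrays left out.

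Sult1d1, a sulfotransferase, read 9.25, 9.72 and 9.05 in knockout VILI lungs, against 11.17, 10.97 and 10.45 in knockout SB lungs, and fell by 1.53 ± 0.31 there (adjusted p = 0.00898). Its wild-type difference of -0.98 was not called (adjusted p = 0.0582). Cyp2b10, a cytochrome P450, fell by 0.48 ± 0.09 in wild-type lungs (adjusted p = 0.00849, and 0.0807 without wild-type SB replicates 1 and 2). In knockout lungs it fell by 0.29 at an adjusted p of 0.0496, which was over 0.05 in 10 of the 14 fits with arrays left out, with a highest value of 0.134. Fmo2, a flavin monooxygenase, fell by 0.42 in wild-type lungs (adjusted p = 0.0141, and 0.0939 without wild-type SB replicates 1 and 2) and differed by -0.24 in knockout lungs (adjusted p = 0.0885). Of the difference between responses, 0 of the 32 genes were called.

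**Figure D5:**
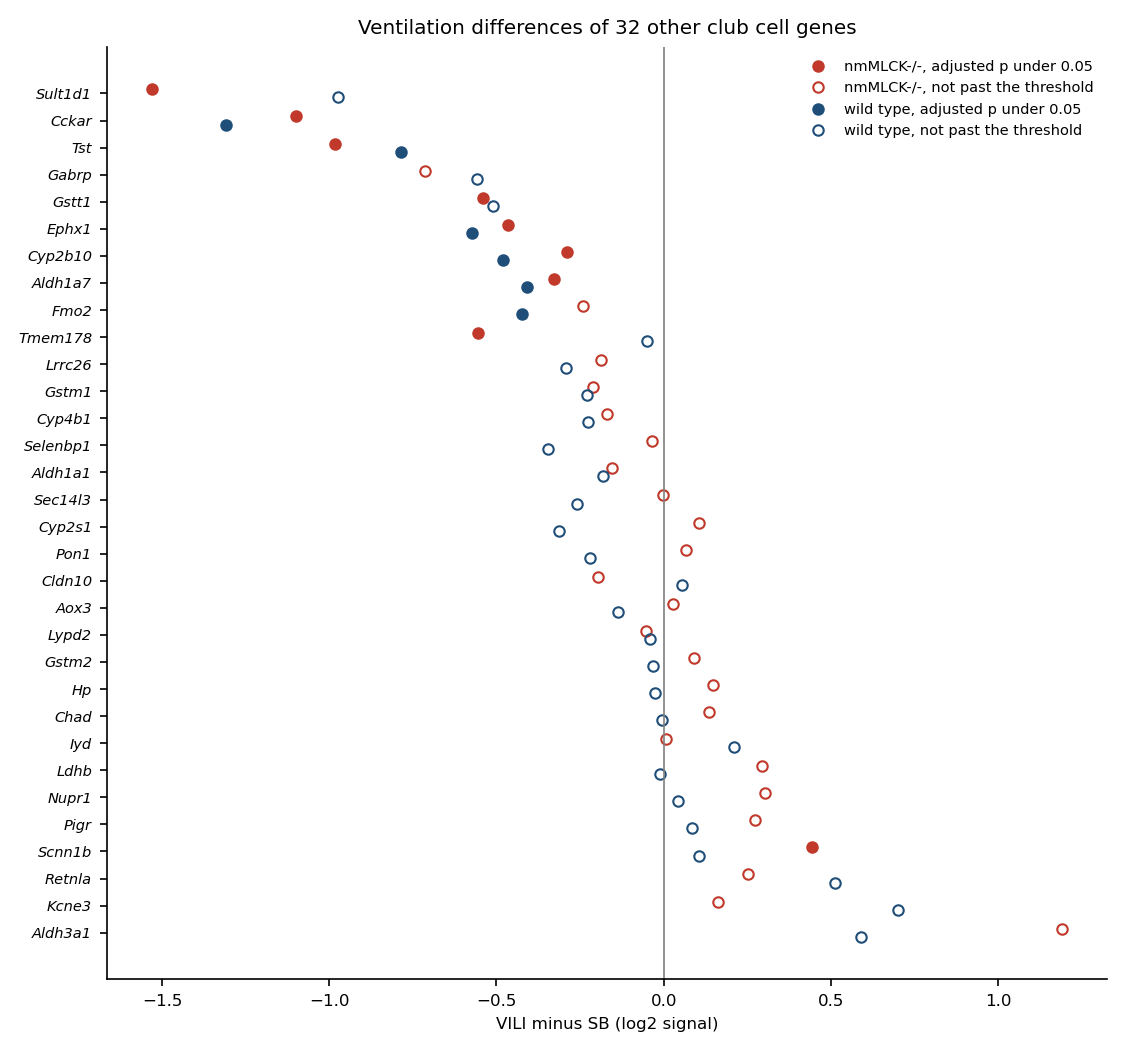
VILI minus SB in log2 signal for 32 other club cell genes in knockout (nmMLCK-/-, red) and wild-type (blue) lungs, ordered by the mean of both, with filled points at an adjusted p under 0.05. Sult1d1, Cckar, Tst, Ephx1 and Cyp2b10 lie below 0 in both genotypes, and Scnn1b is the called gene above 0.

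Relatives of the 8 genes were called in both directions. Of 24 related genes, 17 were tested, of which 3 rose and 2 fell in knockout lungs, and 0 rose and 1 fell in wild-type lungs, beside the same shares of all genes. With each array left out in turn the knockout rises numbered 1 to 3 and the falls 1 to 2 in both genotypes, and with the component pair left out 3 rose and 3 fell in knockout and 2 fell in wild-type lungs. Cbr1, the carbonyl reductase related to Cbr2 in function, read 9.47, 9.52 and 9.39 in knockout VILI lungs, against 10.10, 10.22 and 9.94 in knockout SB lungs. It read 9.32, 9.40 and 9.16 in wild-type VILI lungs, against 10.06, 9.94 and 9.99 in wild-type SB lungs. The groups did not overlap, and Cbr1 fell by 0.63 ± 0.10 in knockout (adjusted p = 0.00264) and by 0.70 ± 0.10 in wild-type lungs (adjusted p = 0.00167), calls that held in all 14 fits with arrays left out.

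Gsta2, a glutathione transferase of the same class as Gsta3, was higher after VILI in knockout lungs. It read 11.59, 11.63 and 11.64 in knockout VILI lungs, against 10.91, 10.71 and 10.92 in knockout SB lungs. It read 10.52, 11.0 and 11.06 in wild-type VILI lungs, against 10.72, 10.67 and 10.77 in wild-type SB lungs. The knockout groups did not overlap and the wild-type groups did. Gsta2 rose by 0.77 ± 0.13 in knockout lungs (adjusted p = 0.00423), differed by 0.14 ± 0.13 in wild-type lungs (adjusted p = 0.508), and the difference between the responses was 0.64 ± 0.19 (adjusted p = 0.867). In the mouse, Gsta2 is near-identical in sequence to Gsta1, so its probe set may also read Gsta1 RNA. The mucins Muc1 and Muc4 rose in knockout lungs by 0.39 and 0.81 (adjusted p = 0.0222 and 0.023, up to 0.0692 and 0.07 with arrays left out). In wild-type lungs they differed by 0.033 and 0.18 (adjusted p = 0.85 and 0.597). The differences between the responses, 0.36 and 0.63, were not called (adjusted p = 0.971 for both).

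Among markers of the neighbouring ciliated cells, every call was a fall. Of 20 listed, 17 were tested, of which 7 fell and 0 rose in knockout lungs and 10 fell and 0 rose in wild-type lungs, beside falls of 12.6% and 9.03% of all genes. The median differences were -0.51 in knockout and -0.67 in wild-type lungs. With the component pair left out, 3 fell in knockout and 9 in wild-type lungs. With the Sox11 pair left out the falls numbered 7 in knockout and 3 in wild-type lungs, and with each array left out in turn 2 to 7 and 3 to 9. Tekt4, a tektin of the axoneme, fell by 2.65 ± 0.23 in knockout (adjusted p = 0.0002) and by 2.19 ± 0.23 in wild-type lungs (adjusted p = 0.000505). Its signal is dim after VILI, at 3.22 to 3.54 in knockout and 3.55 to 4.42 in wild-type lungs. The filter level is 3.056, so the size of these falls is uncertain.

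Likeness of pattern was measured as Pearson's r across the 12 arrays, which share ventilation and genotype, and is given as a description. The 5 genes most like the mean of the standardised 8 genes were Ttc21a (0.913), Cfap61 (0.868), Igfbp5 (0.863), Cfb (0.848) and Rsph1 (0.844), of which Ttc21a, Cfap61 and Rsph1 are known from cilia. The 2 genes most like Gsta3 were Grpel2 (0.961) and Ift43 (0.95). Those most like Scgb3a1 were Tff2 (0.933), a trefoil peptide of mucous cells, and A2ml1 (0.93), and those most like Muc5b were Entpd3 (0.939) and Ptprn2 (0.936). Cyp2f2 was most like Tcf3 (0.845) and Zfp414 (0.842), Cbr2 most like Cpeb1 and Frmd6 (0.86 each), and Scgb3a2 most like Susd2 (0.889) and Ddx20 (0.854). For Scgb1a1 the nearest were Megf11 (0.897) and Eral1 (0.86), over a Scgb1a1 range of 0.0717.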

How the data were processed

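Total lung RNA of 12 mice was hybridised to 12 Affymetrix mouse genome arrays. Each probe set's deposited value is a log2 signal, already normalized by the authors. Per the submitters' processing notes MAS5 and GCRMA were used, with the role of either and any genome build not given in the sources used here. Values ran from 0.7505 to 16.29, with array medians of 4.94 to 5.037, and such near-equal medians hide any change of total RNA per cell. Differences between dim signals can be compressed as well, which was not tested. Of 45037 probe sets, 34945 had 1 symbol in the platform annotation, 932 several and 9160 none. Probe sets with a mean under the 40th percentile (3.056) were left out, and the brightest probe set of each gene gave 12309 genes. limma 3.58.1 in R 4.3.3 was fitted on 4 group means over 12 arrays (8 residual degrees of freedom), two-sided, with Benjamini-Hochberg adjusted p under 0.05 over all genes of a comparison. The number of arrays limits the precision, with a median standard error of 0.148 for a difference of 2 groups and 0.209 for a difference of responses. The gene test was tested on simulated data.

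The 8 genes and the gene lists were chosen with earlier results of these data known, and the heart muscle list after its genes were seen here. Beyond the 8 genes, up to 4 genes of a list with the smallest p, the 5 genes most like the 8 and the 2 most like each are named. Other genes were chosen after their values were seen, among them Mylk, Sox11, Bpifb1, Ltf, Reg3g, Pip, Actc1 and those named in captions. Correlations among the 8 genes have permutation p from 100000 resamples, two-sided. Promoter windows come from RefSeq (GRCm38.p6). Over all genes tested, same-numbered arrays of different groups did not in general deviate together (18 pairs, r from -0.628 to 0.398, 3 over 0.1), so replicate numbers were not taken as pairs. Bpifa1 fell from replicate 1 to 3 in knockout SB, wild-type VILI and wild-type SB lungs and rose in knockout VILI lungs, an order that was not tested. The 26 alternatives covered scaling, filter, choice of probe set, samples, spread, call rule and arrays left out.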

Additional observations from a re-analysis of the deposited data

How the results depend on the processing

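Of 1232 recomputed differences of the 8 genes over 6 comparisons, 1211 kept their direction or moved by less than the standard error on the same side of the threshold, 5 lost a call, 4 gained one and 0 called differences reversed. Among uncalled differences, 58 changed sign. Many settings could not move the size of a difference, so the 1211 does not measure how firm the results are. The replicate block, the filters, the intensity trend and the rule of 1 log2 left it as it was. So did leaving out an array of a group not compared, and another choice of probe set for genes with only 1. In knockout lungs the count of called genes, 1 by the test as reported, was 0 with the next-brightest probe set (Gsta3 -0.35, adjusted p = 0.107) and 0 when at least 1 log2 was also asked for. In wild-type lungs, also 1, it was 0 without wild-type SB replicates 1 and 2, chosen after seeing the data (Gsta3 -0.46, adjusted p = 0.082), and 0 at 1 log2. It was 2, with Cbr2 added, with no filter, with an intensity trend and robust spread, and with array weights. In that order these settings called 1621 of 18193, 1932 of 12309 and 3836 of 12309 genes, against 1892 of 12309 by the test as reported. For the mean of both genotypes it was 0 at 1 log2. Without wild-type SB replicates 1 and 2, with replicate 3 alone in that group, Muc5b differed by 0.96 in that mean. The calls lost at 1 log2 follow from that rule, and the cause of the others was not tested. With each array left out in turn the counts stayed 1, 1 and 1, and 0 in the other comparisons.

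With the replicate number as a block the counts were again 1 in knockout, 1 in wild-type and 1 for the mean, and 0 elsewhere. Gsta3 had adjusted p of 0.00738, 0.00971 and 0.000822 under that block, and it changed no call of the 8 genes. No fit of only the groups compared was made for the mean and the difference of responses, which need all 4 groups.

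Among all genes, calls in knockout numbered 2554, against 1232 to 1647 without knockout SB replicate 2 or any 1 knockout VILI array, 4017 with array weights and 573 at 1 log2. In wild type they numbered 1892, against 933 to 1136 without wild-type SB replicate 1 or any 1 wild-type VILI array, 845 with only the groups compared, 3836 with array weights and 486 at 1 log2. The mean of both had 4520, against 584 at 1 log2. Knockout against wild type had 6 under SB (0 to 65 over the alternatives) and 13 under VILI (2 to 84), and the difference of responses 0 (up to 27). Setting array medians equal moved the median difference of all genes by at most 0.0485, and quantile normalization by at most 0.0171. Array numbers limit what can be seen of Bpifa1, Muc5b and Scgb3a1, and the top of the signal scale limits Scgb1a1.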

Other observations

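Among genes that regulate secretory cells, few were called, and which were called depended on the SB arrays. Of 20 tested regulators, 3 rose and 0 fell with VILI in knockout lungs, beside 8.12% and 12.6% of all genes, and 0 rose and 2 fell in wild-type lungs, beside 6.34% and 9.03%. Without knockout SB replicate 2 and wild-type SB replicate 3, 3 rose and 1 fell in knockout and 1 rose and 4 fell in wild-type lungs. With wild-type SB replicates 1 and 2 left out instead, 3 rose and 1 fell in knockout, and 1 rose and 1 fell in wild-type lungs. Klf5, an epithelial zinc finger factor, rose by 0.73 in knockout lungs (adjusted p = 0.0173, up to 0.0679 and over 0.05 in 2 of 14 fits with arrays left out) and differed by 0.39 in wild-type lungs (0.153). The Notch receptor Notch2 rose by 0.65 in knockout lungs (adjusted p = 0.0279, up to 0.099 and over 0.05 in 4 of the 14) and differed by 0.13 in wild-type lungs (0.66). Grhl2, a factor of epithelial junctions, fell by 0.95 in wild-type lungs (adjusted p = 0.00597) and differed by -0.47 in knockout lungs (0.0755). Jag1, a Notch ligand, fell by 0.75 in wild-type lungs (adjusted p = 0.0297, up to 0.127 and over 0.05 in 5 of the 14). With each array left out the knockout rises numbered 0 to 4 and the wild-type falls 1 to 3, and the difference between the responses was called for 0 genes of all tested.

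Of other cell types, 6 goblet cell genes had 0 calls in knockout lungs and 1 fall in wild-type lungs (Galnt12, -0.54, adjusted p = 0.0237, and 0.166 without wild-type SB replicates 1 and 2), and of 4 basal cell and 4 upper airway genes 0 were called in either genotype. The basal cell genes were dim, with means from 3.17 (Krt5) to 4.26 (Dapl1) against a filter level of 3.056, so their lack of calls says little. Of 11 alveolar type 2 genes 1 rose in knockout lungs and 0 were called in wild-type lungs. Of 10 alveolar type 1 genes 2 rose and 1 fell in knockout lungs, and 1 rose and 1 fell in wild-type lungs, counts to be read beside the 20.7% and 15.4% of all genes called in either direction.

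Of 11 neutrophil genes 11 rose in knockout lungs (8 to 11 with each array left out in turn), beside 8.12% of all genes. In wild-type lungs 5 rose (1 to 10), beside 6.34% of all genes, and wild-type SB replicate 3 had a list median of 1.08. The difference between the responses was called for 0 of the 11, as for 0 of all genes tested. The wild-type rises numbered 10 with knockout SB replicate 2 and wild-type SB replicate 3 left out, and 2 with wild-type SB replicates 1 and 2 left out. Of 16 glucocorticoid response genes 0 were called in either genotype on all arrays, beside 20.7% of all genes in knockout and 15.4% in wild-type lungs. That count also depended on the SB arrays. In the first of those settings 1 rose and 2 fell in knockout and 2 rose and 3 fell in wild-type lungs, and in the second 0 were called in knockout and 4 rose in wild-type lungs.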
